A study of Mus musculus with 4 samples.

Results

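The epicardium is the epithelial sheet that covers the heart, and the cells that leave it become cardiac fibroblasts and mural cells. Control mouse heart cells with markers of the 2 ends of that step were set beside each other at E13.5 and E14.5. These stages are in days of embryonic development. Cells were assigned to a side by detected transcripts. An epicardial-side cell held at least 2 of the mesothelial genes Upk3b, Upk1b, Msln, Krt7, Krt19, Lrrn4 and Gpm6a and at most 1 of Tcf21, Spon2, Lsp1, Slc38a5, Gucy1a3 and Col14a1. A fibroblast-side cell held at least 2 of those 6 fibroblast genes and none of the 7 mesothelial ones. All cells carried at least 500 unique molecular identifiers (UMIs, 1 per captured transcript), at most 20% mitochondrial UMIs, and less than 1% UMIs from Tnnt2, Actc1, Myh6 and Myh7. Of 24849 cells in 4 Drop-seq libraries, 810 control cells met one rule or the other, 107 on the epicardial and 703 on the fibroblast side. The values of these 17 genes chose the cells, so they are described without a test and left out of every count of genes.

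In Drop-seq, a cell and a barcoded bead share a droplet, and the bead captures polyadenylated transcripts, which are read near their 3′ ends. Each library came from cardiac tissue, with 1 library per genotype and stage. Control hearts were Wt1 CreERT2/+; Rosa26mTmG/+, a tamoxifen-inducible Cre inserted at Wt1 with a membrane reporter that switches from tdTomato to EGFP where Cre has acted. Hearts of the Lats1/2 conditional knockout (CKO) carried the same 2 alleles with Lats1/2 F/F, so both genotypes carry the Cre allele at Wt1 and the reporter. The Cre is driven from Wt1, itself an epicardial gene, so recombination is tied to cells that express or expressed it. How many embryos were pooled in a library is not given in the sources used here, nor is the tamoxifen schedule. With 1 control library per stage, stage and library cannot be told apart, and no test was made within a stage.

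As background, epicardial cells are joined by junctions, rest on a basement membrane and express Wt1, Tbx18 and the retinoic acid synthase Aldh1a2. During epithelial-mesenchymal transition (EMT) some of them lose their junctions, enter the muscle wall and take on Tcf21 and Pdgfra expression, the receptor for PDGF-A, as fibroblasts that lay down collagens and periostin. The Hippo kinases Lats1 and Lats2 restrain the cofactors Yap1 and Taz, and the study asked what their loss does to this step. The control cells compared here are groups chosen by marker genes, and no link of descent between them was measured.

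The epicardial side held 54 of 2817 filtered cells at E13.5 (1.92%, Clopper-Pearson 95% interval 1.44 to 2.49%) and 53 of 2386 at E14.5 (2.22%, 1.67 to 2.90%). On the fibroblast side there were 369 cells (13.1%, 11.9 to 14.4%) and 334 cells (13.998%, 12.6 to 15.5%). These intervals, like all intervals and floors here, cover counting error only. Epicardial-side cells were shallower, with median UMIs of 1201.5 against 2204 at E13.5 and 954 against 1183 at E14.5. Summed over cells, that gave 95771 against 1127699 UMIs at E13.5 and 74111 against 616774 at E14.5. A count of 0 on the epicardial side therefore allows up to 31.3 CPM (the UMIs of a gene scaled to a common total of all genes) at E13.5 and 40.5 CPM at E14.5, taking 3 counts as the limit, against 2.66 and 4.86 CPM on the fibroblast side. Of the gated control cells, 2 carried a barcode that also occurs in another library.

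**Figure D1:**
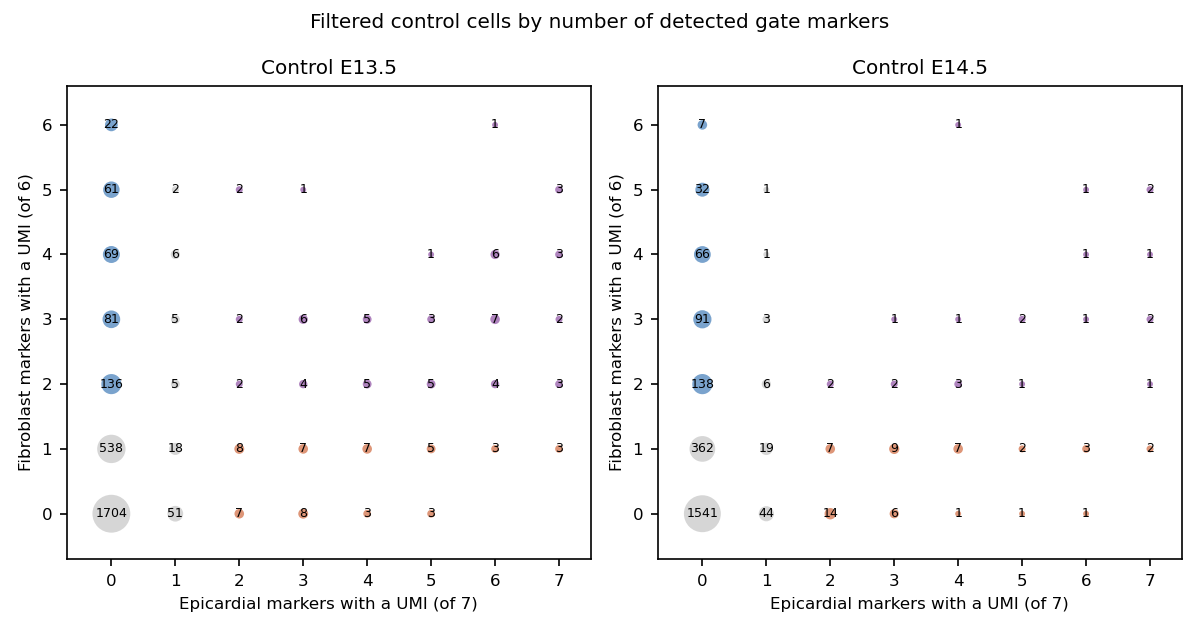
Numbers of filtered control cells by how many of the 7 epicardial markers (x axis) and of the 6 fibroblast markers (y axis) had a UMI, at E13.5 (left) and E14.5 (right). Orange circles are the epicardial side (54 and 53 cells), blue the fibroblast side (369 and 334), purple cells with 2 or more of both (65 and 22) and grey cells outside these groups. Circle area grows with the square root of the cell number printed in it.

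The gate genes themselves gave unequal contrasts. Upk3b, a uroplakin of the mesothelial surface, stood at 2537 CPM (E13.5) and 2955 CPM (E14.5) on the epicardial side and, by the rule, at 0 on the other. Tcf21, a transcription factor needed for fibroblast formation, stood at 52.2 against 716 CPM at E13.5 and 13.49 against 524 CPM at E14.5. Spon2, a secreted matrix protein used as a fibroblast marker, was closer between the sides, at 178 against 460 CPM at E13.5 and 391 against 509 CPM at E14.5. Slc38a5, an amino acid transporter, had no UMI on the epicardial side at either stage. Many cells lay at the edge of the gate: 15 of 54 and 21 of 53 epicardial-side cells had exactly 2 epicardial markers, and 136 of 369 and 138 of 334 fibroblast-side cells had exactly 2 fibroblast markers. Just outside it, 51 and 44 cells had 1 epicardial marker and no fibroblast marker, and 538 and 362 had 1 fibroblast marker and no epicardial marker.

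Outside the gate, 6823 genes were abundant enough to test across the 4 control sums (2 stages by 2 sides). The test was edgeR's quasi-likelihood test with the library as a block and Benjamini-Hochberg adjustment over all genes tested, and a gene was called at an adjusted p under 0.05. By this rule 180 genes (2.64%) were higher on the epicardial side and 76 (1.11%) on the fibroblast side, 3.75% in all. DESeq2, run as an alternative, called 94 (1.49%) and 18 (0.286%) of 6292. The median log2 ratio (epicardial over fibroblast) of all genes tested was -0.07 (E13.5) and -0.11 (E14.5). Among called genes the fitted log2 ratio had a median of 2.67 on the epicardial side and -1.94 on the fibroblast side. The exception among 256 called genes to a shared sign at both stages was Hbegf, a growth factor named after its values were seen, with 66 UMIs on the epicardial side at E13.5, 62 of them in 1 cell. In 249 of the 256, the counting interval of the ratio excluded 0 at both stages. Cells chosen by some genes will differ in others that are expressed with them, so a call describes cells gated in this way and not a separately isolated population. The fit has 1 residual degree of freedom and borrows the spread from all genes. A gene scarce on one side passed the abundance filter through the other, so the direction of its call is partly fixed by that filter.

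**Figure D2:**
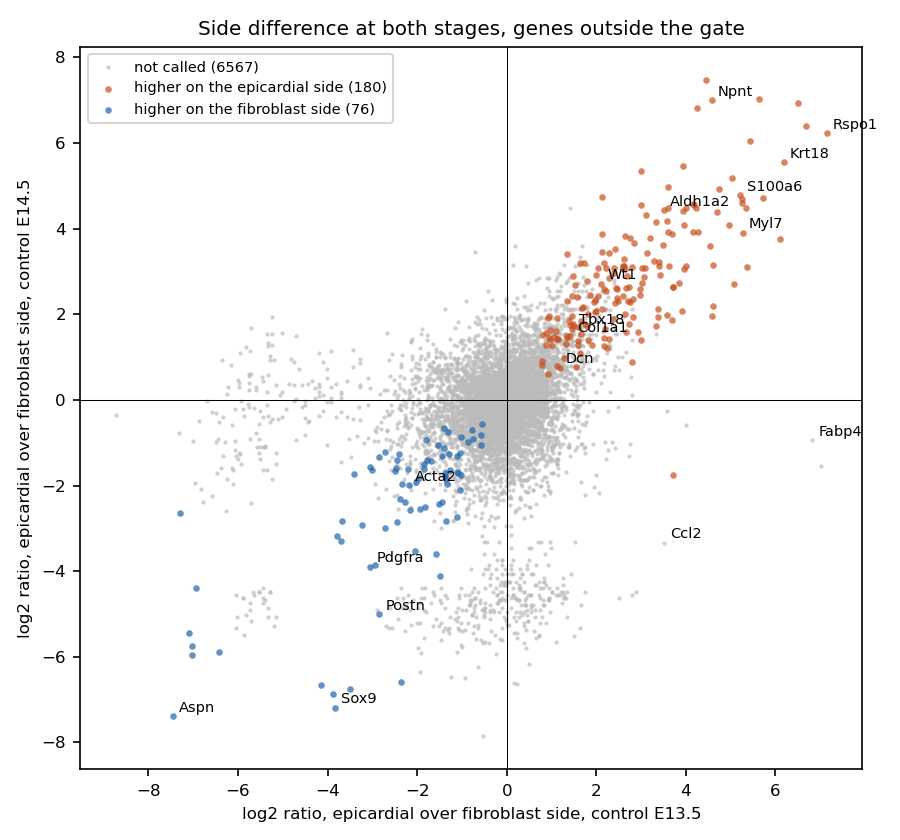
Log2 ratio of epicardial over fibroblast side for the 6823 tested genes outside the gate, at E13.5 (x axis) and E14.5 (y axis), from summed UMIs. Orange points are the 180 genes called higher on the epicardial side and blue points the 76 called higher on the fibroblast side, and 255 of these 256 share their sign at both stages. Grey bands near -5 on either axis are genes without a UMI on the epicardial side, whose ratio is set by the added 0.5 count.

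Epicardial identity genes that had no part in the gate were higher on the epicardial side. Of 20 such genes, 13 were abundant enough to test and all 13 of these were called, beside 2.64% of all genes; the list was drawn up with earlier results of these data known, and the 13 passed the abundance filter mostly through their high side. The other 7 (Aldh1a1, Krt8, Upk1a, Bnc2, Muc16, C3 and Cdh1) were too sparse, with Upk1a, C3 and Cdh1 at 0 in all 4 sums. The median log2 ratio over the 13 tested genes was 3.51 (E13.5) and 2.72 (E14.5). The summed level of the 20 genes was 4479 against 905 CPM at E13.5 and 4453 against 851 CPM at E14.5.

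Wt1 (chr2:105126529-105173616, plus strand, GRCm38), the zinc finger regulator of the epicardium, stood at 136 CPM on the epicardial and 31.0 CPM on the fibroblast side at E13.5. At E14.5 it stood at 243 against 35.7 CPM. The fitted log2 ratio was 2.44 ± 0.42 (SE; adjusted p = 0.00601). With each cell thinned to 500 UMIs, a Wt1 UMI was found in 14.8% of epicardial-side and 1.36% of fibroblast-side cells at E13.5, and in 13.2% and 1.80% at E14.5. Unthinned, these shares were 22.2% and 8.94%, then 22.6% and 6.59%. In cardiomyocytes (cells with at least 2% of UMIs from the 4 muscle genes of the rule), which should lack Wt1, the thinned share was 0% of 1424 cells and 0.117% of 2556 cells (median depths 1967 and 1118.5 UMIs), so the low share on the fibroblast side lay above that background. Tbx18, a T-box factor of the epicardium, differed less, at 386 against 139 CPM and 229 against 71.3 CPM (log2 1.54 ± 0.28, adjusted p = 0.00906).

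Aldh1a2 (chr9:71215789-71296243, plus strand) makes retinoic acid, a signal from the epicardium to the growing wall. It stood at 261 against 22.2 CPM at E13.5 and 378 against 16.2 CPM at E14.5, a log2 ratio of 3.96 ± 0.41 (adjusted p = 0.000198). Of the 24 retinoid genes listed, 7 were tested and 5 were not called. Over all genes, 2.64% were called higher on the epicardial side and 1.11% on the fibroblast side. The retinoid genes not called included the retinal reductase Dhrs3 (20.9 against 42.6 CPM and 27.0 against 45.4 CPM, adjusted p = 0.638) and the retinol dehydrogenase Rdh10 (136 against 29.3 CPM and 81.0 against 43.8 CPM, adjusted p = 0.122). Rdh10 was called higher on the epicardial side under 7 of 13 alternatives.

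The 15 genes with the largest ratios on the epicardial side, ranked by the smaller of the 2 stages, were Tm4sf5, Crb2, Rspo1, Bnc1, Krt18, Ppl, Fras1, S100a6, Smim1, Egfl6, Fmod, Apela, Npnt, Plekha7 and Efemp1. They came from 164 called genes with the same sign at both stages and at least 50 CPM on the higher side in both libraries. Several are parts of an epithelium: the keratin Krt18, the desmosomal linker periplakin (Ppl), the polarity protein Crb2, the adherens junction protein Plekha7 and the tetraspanin relative Tm4sf5. Tm4sf5 had 7 and 13 UMIs on the epicardial side and none on the fibroblast side. The counting interval of its log2 ratio started at 4.09 (E13.5) and 4.66 (E14.5). Crb2 had no UMI on the fibroblast side either, and its interval started at 4.33 and 4.04. DESeq2 called 12 of the 15 but not Tm4sf5 (adjusted p = 0.719), Crb2 (0.765) and Efemp1 (0.0785). Krt18 stood at 188 against 1.77 CPM (18 and 2 UMIs) at E13.5 and 297 against 4.86 CPM (22 and 3 UMIs) at E14.5, with a fitted log2 ratio of 6.17 ± 0.55 (adjusted p = 6.77e-05). S100a6, a calcium-binding protein, stood at 1086 against 28.4 CPM and 931 against 32.4 CPM (log2 5.06 ± 0.26, adjusted p = 1.57e-06). A thinned cell held an S100a6 UMI in 27.8% and 37.7% of epicardial-side cells and in 0.542% and 0.599% of fibroblast-side cells. In cardiomyocytes the thinned S100a6 share was 0.281% and 0.509%. Unthinned, the shares were 48.1% and 58.5% (epicardial side), 5.42% and 4.79% (fibroblast side), and 0.702% and 1.13% (cardiomyocytes). The unthinned fibroblast-side shares thus lay above those of cardiomyocytes at both stages.

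Among junction and polarity genes, 10 of 30 were tested and 4 were called, all higher on the epicardial side, beside 2.64% of all genes: the claudins Cldn15 and Cldn3, the junctional adhesion molecule F11r and P-cadherin (Cdh3). Cdh3 stood at 188 against 32.8 CPM at E13.5 and 94.5 against 17.8 CPM at E14.5 (log2 2.46 ± 0.47, adjusted p = 0.011). E-cadherin (Cdh1) had no UMI in any control sum. N-cadherin (Cdh2), the classical cadherin of the mesenchyme and of muscle, was not called, at 83.5 against 127 CPM and 189 against 182 CPM (adjusted p = 0.841). Of 20 keratin and mesothelial surface genes outside the gate, 9 were tested and 5 were called (Tm4sf5, Krt18, Ezr, Bcam and Podxl). All were called on the epicardial side, again beside 2.64%. In both lists most called genes were scarce on the fibroblast side. They passed the abundance filter through their epicardial side, which partly fixes the direction of these calls. Ezr, which ties the apical membrane to actin, stood at 752 against 28.4 CPM and 607 against 27.6 CPM (log2 4.60 ± 0.28, adjusted p = 4.1e-06).

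**Figure D3:**
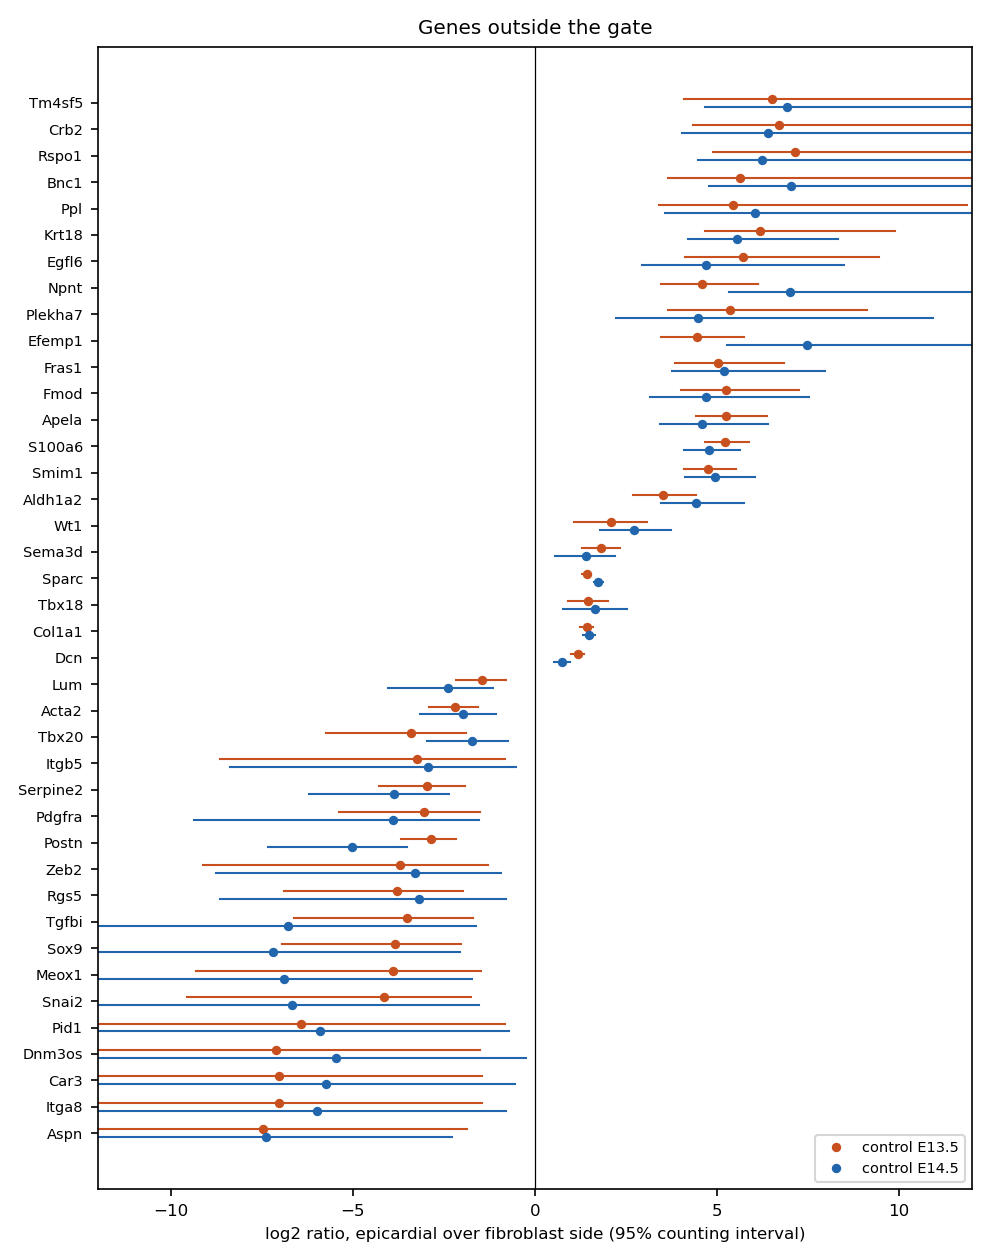
Log2 ratio of epicardial over fibroblast side at E13.5 (orange) and E14.5 (blue) for the 30 genes with the largest ratios and 10 further genes outside the gate, with exact 95% counting intervals as lines. Intervals run past the axis where a side had no UMI and are drawn to the edge of the axis. All of these genes lie on the same side of 0 at both stages.

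Basement membrane genes were called on both sides. Of 24 genes listed, 16 were tested, 4 were higher on the epicardial side and 1 on the fibroblast side, beside 2.64% and 1.11% of all genes, and 11 were not called. The laminin chain Lama5 stood at 125 against 6.21 CPM and 148 against 4.86 CPM (log2 4.50 ± 0.55, adjusted p = 0.000565). Nidogen-2 (Nid2), which links laminin to collagen IV, stood at 491 against 54.98 CPM and 540 against 48.6 CPM (log2 3.29 ± 0.27, adjusted p = 4.17e-05). Nephronectin (Npnt) stood at 188 against 7.09 CPM and 391 against 1.62 CPM. Its receptor subunit Itga8 was among the largest genes of the opposite side, with 0 against 120 UMIs at E13.5 and 0 against 55 at E14.5. The counting interval of the Itga8 log2 ratio reached up to -1.44 (E13.5) and -0.79 (E14.5). The laminin chain Lama4 of vessel and interstitial basement membranes was higher on the fibroblast side, at 73.1 against 192 CPM and 67.5 against 222 CPM (log2 -1.54 ± 0.37, adjusted p = 0.042).

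Signalling genes were called on both sides. Pdgfa, the PDGF-A ligand, stood at 188 against 23.1 CPM at E13.5 and 94.5 against 16.2 CPM at E14.5 (log2 2.84 ± 0.48, adjusted p = 0.00535). Its receptor Pdgfra (chr5:75152292-75198215, plus strand) stood at 31.3 against 264 CPM and 13.49 against 220 CPM (3 against 298 and 1 against 136 UMIs; log2 -3.38 ± 0.48, adjusted p = 0.00161). A thinned cell held a Pdgfra UMI in 1.85% and 1.89% of epicardial-side and 12.5% and 13.47% of fibroblast-side cells, beside 0.211% and 0.509% of cardiomyocytes (unthinned 5.56% and 1.89%, 39.8% and 28.7%, and 0.983% and 1.60%). These were the 2 calls among 8 tested FGF and PDGF genes, beside 2.64% (epicardial side) and 1.11% (fibroblast side) of all genes. Pdgfrb, the mural PDGF receptor, had 0 against 71 UMIs at E13.5 and 2 against 34 at E14.5 and was not called (adjusted p = 0.258).

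Rspo1, an amplifier of Wnt signalling, was the 1 call among 9 tested Wnt genes, beside 2.64% of all genes called on the epicardial side. It had 11 against 0 UMIs at E13.5, where the counting interval of its log2 ratio started at 4.89, and 17 against 1 at E14.5. Of 17 tested chemokine and guidance genes, 3 were called and all 3 were higher on the epicardial side, beside 2.64% of all genes: the semaphorins Sema3c and Sema3d and the semaphorin receptor Plxna4. Sema3d stood at 438 against 123 CPM and 243 against 90.8 CPM (log2 1.66 ± 0.28, adjusted p = 0.00502). Apela, a ligand of the apelin receptor, stood at 470 against 11.5 CPM and 270 against 9.73 CPM (log2 5.11 ± 0.41, adjusted p = 2.76e-05). Of 11 tested IGF genes, the binding proteins Igfbp3 and Igfbp5 were called, both higher on the epicardial side, beside 2.64% of all genes. The ligand Igf2 stood at 6850 against 5904 CPM and 5627 against 3536 CPM and was not called (log2 0.44 ± 0.14, adjusted p = 0.144), though 7 of 14 alternatives called it higher on the epicardial side. Igf1 was at 251 against 327 CPM and 202 against 149 CPM (adjusted p = 0.957). Among 20 tested TGF-beta and BMP genes the 1 call was the ligand Tgfb2, beside 1.11% of all genes. It was higher on the fibroblast side, at 146 against 361 CPM and 108 against 259 CPM (log2 -1.29 ± 0.30, adjusted p = 0.035).

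Collagen I did not follow the name of the fibroblast side. Col1a1 (chr11:94936224-94953042, plus strand) stood at 2986 CPM on the epicardial and 1114 CPM on the fibroblast side at E13.5, and at 5154 against 1829 CPM at E14.5. The fitted log2 ratio was 1.46 ± 0.14 (adjusted p = 0.000116). After thinning, 61.1% and 81.1% of epicardial-side cells held a Col1a1 UMI against 40.7% and 55.7% of fibroblast-side cells, and 0.772% and 4.89% of cardiomyocytes. Unthinned, the shares were 81.5% and 90.6%, 78.3% and 80.2%, and 2.74% and 9.70%. With no fibroblast marker allowed on the epicardial side (21 and 23 cells), the log2 ratio was 0.77 and the call was lost. The calls of Dcn (0.47), Wt1 (1.81) and Tbx18 (1.44) were lost as well. At E13.5 those 21 cells held 34262 UMIs, and 1 of them held 187 of their 260 Vim UMIs. Leaving out the deepest 5% of cells took the E13.5 epicardial side from 54 cells and 95771 UMIs to 53 cells and 85040 UMIs. The part of single deep cells in the lost calls was not tested. The partner chain Col1a2 (6087 against 2432 CPM and 9594 against 3906 CPM) and the collagen-binding protein Sparc (7226 against 2694 CPM and 11739 against 3496 CPM) were also higher on the epicardial side, with log2 ratios of 1.31 ± 0.12 (adjusted p = 9.41e-05) and 1.58 ± 0.13 (adjusted p = 4.35e-05). Col3a1 was not called, at 4647 against 4543 CPM and 5816 against 4598 CPM (adjusted p = 0.602).

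The counts of calls in the next 3 lists stand beside 2.64% (epicardial side) and 1.11% (fibroblast side) of all genes. Of 20 genes listed as fibroblast genes outside the gate, 18 were tested. Of these, 4 were higher on the fibroblast side (Meox1, Postn, Pdgfra and Lum), 3 were higher on the epicardial side (Col1a1, Col1a2 and Dcn) and 11 were not called. The median log2 ratio was -0.83 (E13.5) and -0.49 (E14.5), while the summed level of the 20 genes was higher on the epicardial side, at 19359 against 14111 CPM and 25394 against 16534 CPM. Across 32 interstitial matrix genes, all tested, 5 were higher on the epicardial side (Fbln2, Sparc, Col1a1, Col1a2 and Pcolce), 5 on the fibroblast side (Tgfbi, Tnc, Postn, Emilin1 and Col6a1) and 22 were not called. The small leucine-rich proteoglycans, which coat collagen fibrils, split as well: Fmod and Dcn were higher on the epicardial side, Aspn and Lum on the fibroblast side, and 2 of the 6 tested were not called. Decorin (Dcn) stood at 3237 against 1426 CPM and 2780 against 1646 CPM (log2 0.97 ± 0.16, adjusted p = 0.00392). Lumican (Lum) stood at 209 against 567 CPM and 67.5 against 357 CPM (log2 -1.75 ± 0.30, adjusted p = 0.00574).

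The 15 largest genes of the fibroblast side, by the same ranking from 75 genes, were Aspn, Itga8, Pid1, Car3, the joined feature Dnm3os_Mir199a-2_Mir214, Snai2, Meox1, Sox9, Tgfbi, Zeb2, Rgs5, Pdgfra, Serpine2, Itgb5 and Postn. The first 5 had no UMI on the epicardial side at either stage, so their place in this order is set by the added 0.5 count, and nothing shows that they differ more than measured genes such as Postn. DESeq2 called 6 of these 15, leaving out those 5 and Snai2, Meox1, Zeb2 and Itgb5. Periostin (Postn, chr3:54361109-54391037, plus strand), a matricellular protein, stood at 167 against 1209 CPM at E13.5 and 40.5 against 1346 CPM at E14.5 (16 against 1363 and 3 against 830 UMIs; log2 -3.55 ± 0.35, adjusted p = 0.000116). A thinned cell held a Postn UMI in 5.56% and 0% of epicardial-side and 35.5% and 39.5% of fibroblast-side cells, against 1.26% and 4.93% of cardiomyocytes (unthinned 7.41% and 5.66%, 69.4% and 65.6%, and 4.28% and 10.8%). Asporin (Aspn) had no UMI on the epicardial side at either stage and 161 and 149 UMIs on the fibroblast side. The counting interval of its log2 ratio reached up to -1.87 (E13.5) and -2.26 (E14.5). Those limits are small in size because the epicardial sums are shallow. The matricellular protein Tgfbi had 2 against 277 UMIs at E13.5 and 0 against 96 at E14.5 (log2 -4.12 ± 0.63, adjusted p = 0.0026). Serpine2, a protease inhibitor, stood at 73.1 against 569 CPM and 40.5 against 605 CPM (log2 -3.32 ± 0.34, adjusted p = 0.000161).

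The transcription factors Snai2 and Zeb2 were higher on the fibroblast side. Snai2 (chr16:14705852-14709385, plus strand), a zinc finger repressor of epithelial genes, had 1 against 223 UMIs at E13.5 and 0 against 90 at E14.5, or 10.4 against 198 CPM and 0 against 146 CPM (log2 -4.85 ± 0.73, adjusted p = 0.00255). After thinning, a Snai2 UMI was present in 8.67% and 6.89% of fibroblast-side cells and in 0 of 54 and 0 of 53 epicardial-side cells (upper limits of the exact interval 6.603% and 6.72%), beside 0.140% and 0.313% of cardiomyocytes. Unthinned, the shares were 35.5% and 20.1%, 1.85% and 0%, and 0.632% and 1.02%. Zeb2, a repressor of the same kind, had 1 against 163 UMIs and 1 against 90 UMIs (log2 -3.60 ± 0.63, adjusted p = 0.00676). Of 18 tested EMT genes, 5 were higher on the fibroblast side (Snai2, Sox9, Zeb2, Ets1 and Tcf4), 1 on the epicardial side (Sparc) and 12 were not called, beside 1.11% and 2.64% of all genes. Vimentin (Vim), the intermediate filament often used as a mesenchymal sign, was not called (adjusted p = 0.741) and lay on opposite sides at the stages, with 3884 against 3135 CPM and 1255 against 2202 CPM. Under 4 of 14 alternatives it was called higher on the fibroblast side. The basic helix-loop-helix factor Twist1 stood at 73.1 against 64.7 CPM and 54.0 against 53.5 CPM (adjusted p = 0.956).

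Among 25 tested transcription factors of the epicardial lineage, Wt1, Klf4 and Tbx18 were higher on the epicardial side. Meox1, Sox9, Tbx20, Id2 and Id3 were higher on the fibroblast side. The shares over all genes were 2.64% and 1.11%. Sox9, a factor of cartilage and valve mesenchyme, had 2 against 350 UMIs and 0 against 129 UMIs (log2 -4.49 ± 0.59, adjusted p = 0.00095). Tbx20, expressed in valve mesenchyme and heart muscle, stood at 31.3 against 339 CPM and 108 against 360 CPM (log2 -2.42 ± 0.41, adjusted p = 0.00502). Gata4, a factor of both layers, was not called (104 against 87.8 CPM and 67.5 against 87.6 CPM, adjusted p = 0.997).

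Contractile genes, where called, were higher on the fibroblast side. Of 23 tested actin and contractile genes, 8 were called and all 8 were higher there, beside 1.11% of all genes (Acta2, Tagln, Tagln2, Tpm2, Myl9, Cnn2, Tpm4 and Actb). Smooth muscle actin (Acta2) stood at 209 against 952 CPM and 121 against 485 CPM (log2 -2.12 ± 0.25, adjusted p = 0.000473). After thinning, an Acta2 UMI was present in 1.85% and 5.66% of epicardial-side and 23.6% and 20.7% of fibroblast-side cells, and in 50.8% and 42.4% of cardiomyocytes, which express it in the embryo. Without thinning, these shares were 3.70% and 9.43%, 42.0% and 39.2%, and 75.0% and 63.5%. Markers of mural and valve cells moved with this. Their counts of calls stand beside 1.11% (fibroblast side) and 2.64% (epicardial side) of all genes. Of 9 mural markers, 5 were tested and 3 were called (Rgs5, Acta2 and Tagln), and their summed level was 512 against 2198 CPM at E13.5 and 364 against 1106 CPM at E14.5, with no member at 0 in all sums. Of 9 valve markers, 5 were tested, Sox9 and Tbx20 were higher on the fibroblast side and Fmod on the epicardial side, and the sums were 386 against 955 CPM and 310 against 705 CPM, with Tnmd at 0 throughout. With fibroblast-side cells limited to those with a Tcf21 UMI, an alternative added after seeing these markers, 79 of the 81 called genes named here that could still be tested remained called, all 81 with the same sign, and Tgfb2 (log2 -1.02) and Myl9 (log2 -0.86) were lost. The part that mural or valve cells take in the contrast beyond that was not tested.

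The called cell cycle and early response genes were all higher on the fibroblast side. Of 24 tested G2 and M phase genes, Mki67 and Smc4 were higher on the fibroblast side, and of 19 tested S phase genes, Pcna was, beside 1.11% of all genes. Mki67 stood at 73.1 against 389 CPM and 121 against 295 CPM (log2 -1.86 ± 0.36, adjusted p = 0.0115). The G2 and M genes summed to 2234 against 5783 CPM at E13.5 and 4061 against 5157 CPM at E14.5. Median log2 ratios of tested members were -1.26 and -0.22, and in S phase -0.98 and -0.86, beside -0.07 and -0.11 over all genes. Of 16 tested early response genes, Junb, Fosb and Egr1 were higher on the fibroblast side, again beside 1.11% of all genes. They are transcription factors switched on rapidly by growth signals and stress. Junb stood at 73.1 against 408 CPM and 108 against 326 CPM (log2 -2.06 ± 0.34, adjusted p = 0.00502).

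Myl7 (chr11:5896637-5898782, minus strand), the atrial myosin light chain, is known as a cardiomyocyte gene and was called on the epicardial side. It stood at 2360 against 60.3 CPM at E13.5 and 2307 against 152 CPM at E14.5 (226 against 68 and 171 against 94 UMIs; log2 4.59 ± 0.29, adjusted p = 5.24e-06). Its UMIs were spread over 41 of 54 and 38 of 53 epicardial-side cells, with at most 22 and 27 in 1 cell. After thinning, 55.6% and 52.8% of epicardial-side cells held a Myl7 UMI, against 3.25% and 6.59% on the fibroblast side and 65.2% and 54.9% of cardiomyocytes (unthinned 75.9% and 71.7%, 13.8% and 20.96%, and 89.5% and 75.9%). Of 8 cardiomyocyte markers tested, Myl7 was the 1 call, beside 2.64% of all genes. The 9 markers without Myl7 summed to 313 against 395 CPM at E13.5 and 1687 against 1902 CPM at E14.5. In cardiomyocytes Myl3 stood at 8267 and 6759 CPM beside 3094 and 2612 CPM for Myl7. Tnnt2, held under the rule's limit, was at 428 against 131 CPM and 1268 against 961 CPM.

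Endothelial markers gave 0 calls in 7 tested genes by edgeR, with 0 at an unadjusted p under 0.05 and 0 called by DESeq2. Over all genes, edgeR called 3.75%, and 1044 of 6823 had an unadjusted p under 0.05. The 10 endothelial markers summed to 939.7 against 314 CPM at E13.5 and 621 against 1015 CPM at E14.5, higher on opposite sides at the stages. Hepatocyte markers had no UMI, and macrophage markers, none of them tested, summed to at most 149 CPM on any side. Haemoglobin transcripts differed between the sides: Hbb-bs stood at 62.6 against 414 CPM and 796 against 1848 CPM (log2 -1.61 ± 0.28, adjusted p = 0.00678), and the 8 erythroid markers summed to 626 against 6845 CPM and 2901 against 4864 CPM. Their part in the other differences was not tested. Cells with 2 or more markers of another cell type made up 20.4% and 43.4% of the epicardial and 53.7% and 64.4% of the fibroblast side. They made up 61.3% and 69.9% of all filtered cells, whose median depths were 1439 and 883.5 UMIs. Without them the calls were 204 and 136 of 2273 genes, and 66 of the 68 called genes named here that could be tested remained called. The others were Tgfb2 (log2 -0.42) and Hbb-bs (log2 -0.04). The cells left out were chosen by endothelial, macrophage, mural and erythroid markers. Hbb-bs, Rgs5, Acta2 and Tagln are among those markers, so their ratios in this alternative are partly set by the choice.

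Genes of the Hippo pathway were called only among YAP targets. Of 19 tested pathway components edgeR called 0 and DESeq2 called 0. An unadjusted edgeR p under 0.05 was reached by 4 of the 19, beside 1044 of all 6823 genes. Of 14 tested YAP target genes 2 were called, Igfbp3 on the epicardial and Tgfb2 on the fibroblast side. The shares over all genes were 2.64% and 1.11%. Yap1 stood at 83.5 against 68.3 CPM and 94.5 against 32.4 CPM (log2 0.79 ± 0.51, adjusted p = 0.536). Lats2 stood at 83.5 against 39.0 CPM and 40.5 against 40.5 CPM (adjusted p = 0.653), and Lats1, with 1 and 2 UMIs on the epicardial side, was too sparse to test. The YAP target Ctgf was at 198 against 123 CPM and 40.5 against 63.2 CPM (adjusted p = 0.799), and Ankrd1 at 20.9 against 87.8 CPM and 40.5 against 133 CPM (adjusted p = 0.104).

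Promoter sequence, the 250 bases before the RefSeq start, was read for 22 of the 30 largest genes that had an entry (GRCm38.p6). The motifs searched, on both strands, were GGAATG, bound by the TEAD partners of Yap1, TGANTCA, bound by AP-1 factors such as Junb and Fosb, and CAGCTG, an E-box. Of the 22, 4 held a match, shown in capitals and printed because they are the large genes of the contrast with such a match. Tm4sf5 at 11:70505024-70505273 (plus strand) held an E-box, first base 114 before the start. Apela at 8:65037337-65037586 (minus strand) held a TEAD match, 168 before. Efemp1 at 11:28852955-28853204 (plus strand) held an AP-1 match, 154 before. Itgb5 at 16:33829415-33829664 (plus strand) held an E-box, 122 before. Of all 27025 promoters, 14.6%, 7.93% and 16.1% held the motifs, in the order given. Those shares were read from whole promoter entries, not cut to 250 bases, so they are no like background for the 22. A promoter entry was matched for 127 of 180 and 47 of 76 called genes, under 80% of each, so a comparison of motif shares between the sides is void. A match is a run of letters, not a measured binding site.
Tm4sf5: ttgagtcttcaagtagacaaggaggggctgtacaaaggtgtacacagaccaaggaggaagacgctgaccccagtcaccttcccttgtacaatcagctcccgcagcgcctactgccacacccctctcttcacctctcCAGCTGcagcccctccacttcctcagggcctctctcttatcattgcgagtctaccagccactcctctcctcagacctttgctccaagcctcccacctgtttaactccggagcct
Apela: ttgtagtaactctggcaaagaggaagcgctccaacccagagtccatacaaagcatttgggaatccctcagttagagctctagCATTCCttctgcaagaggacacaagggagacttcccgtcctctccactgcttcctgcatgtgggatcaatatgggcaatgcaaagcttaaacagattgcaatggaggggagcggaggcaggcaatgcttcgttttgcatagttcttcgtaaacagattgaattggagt
Efemp1: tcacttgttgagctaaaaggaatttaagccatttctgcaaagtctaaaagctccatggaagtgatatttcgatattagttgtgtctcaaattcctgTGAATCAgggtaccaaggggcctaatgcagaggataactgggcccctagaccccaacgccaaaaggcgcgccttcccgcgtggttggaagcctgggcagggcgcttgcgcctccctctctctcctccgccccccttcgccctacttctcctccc
Itgb5: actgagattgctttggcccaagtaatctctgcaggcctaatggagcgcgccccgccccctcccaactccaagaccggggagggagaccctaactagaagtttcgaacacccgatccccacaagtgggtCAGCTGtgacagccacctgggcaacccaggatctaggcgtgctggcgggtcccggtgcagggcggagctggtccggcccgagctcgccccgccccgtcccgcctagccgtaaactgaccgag

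Cells with 2 or more markers of both lists, left out of the contrast, numbered 65 at E13.5 and 22 at E14.5. They were the deepest, with medians of 3608 and 3097.5 UMIs. For every called gene their level was placed on a log scale with 10 CPM added, on which the fibroblast side is 0 and the epicardial side is 1. Over the 180 genes of the epicardial side their median position was 0.955 and 1.004, and over the 76 genes of the fibroblast side 0.746 and 0.813. The epicardial genes thus stood near their epicardial-side level in these cells, and the fibroblast genes lay between the sides but nearer to the epicardial one. Fibroblast-side cells with 1 epicardial marker (18 and 11 cells, outside the gate) had median positions of 0.163 and 0.117 over the epicardial genes and 0.159 and 0.137 over the fibroblast genes. The genes were called on the 2 sides that define the scale, so these positions are a description, and the part of doublets, depth or free RNA in them was not tested.

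Single genes followed different courses across these groups. Myl7 stood at 2769 and 2430 CPM in the cells with both marker sets, against 324 and 107 CPM in fibroblast-side cells with 1 epicardial marker. Col1a1 stood at 3350 and 6201 CPM and Wt1 at 262 and 212 CPM in the cells with both, all within or above the epicardial-side groups. Postn was at 222 and 171 CPM in the cells with both and at 674 and 640 CPM in fibroblast-side cells with 1 epicardial marker, below the 1209 and 1346 CPM of the fibroblast side. Pdgfra lay between the sides, at 139 and 40.3 CPM in the cells with both. Tgfbi in them stood at 22.8 and 50.4 CPM and reached 246 and 160 CPM in fibroblast-side cells with 1 epicardial marker. With any number of fibroblast markers allowed on the epicardial side, an alternative added after seeing these depths, 614 genes were higher on the epicardial and 514 on the fibroblast side of 8482 tested, and 174 of 180 and 74 of 76 calls were shared.

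**Figure D4:**
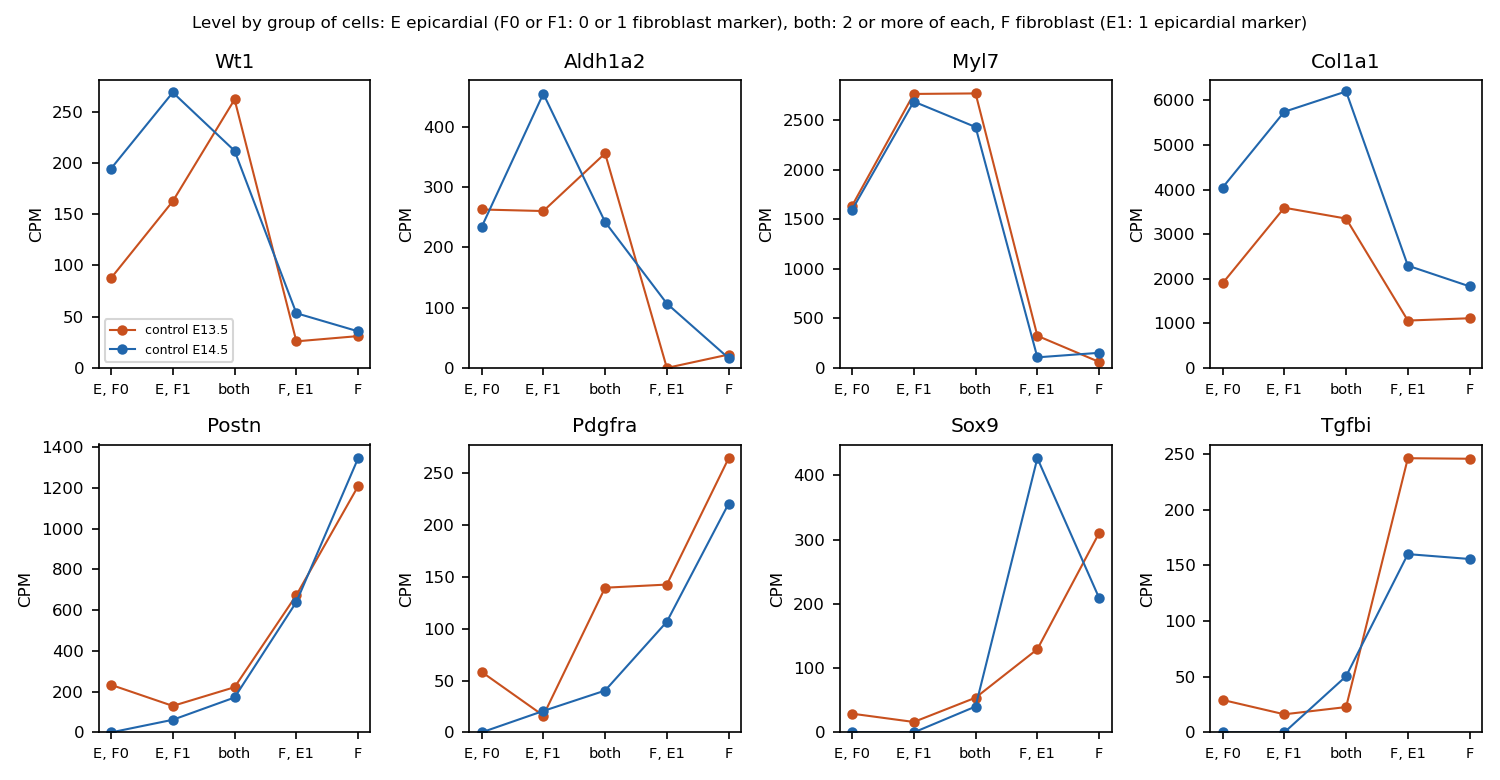
Level in CPM (y axis, from 0) of 8 genes outside the gate in 5 groups of control cells, from epicardial cells with 0 fibroblast markers (left) to fibroblast cells (right), at E13.5 (orange) and E14.5 (blue). Each point is 1 sum of UMIs over 11 to 369 cells with no replicate. Wt1, Aldh1a2, Myl7 and Col1a1 stay high through the cells with both marker sets, while Postn and Tgfbi are low until the fibroblast-marked groups.

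The same gate in the 2 Lats1/2 CKO libraries, which the rule did not use, gave 99 and 120 epicardial-side and 595 and 278 fibroblast-side cells. There 512 of 6335 tested genes (8.08%) were higher on the epicardial and 408 (6.44%) on the fibroblast side. Of 240 genes called in controls and tested in the knockouts, 239 had the same sign and 223 were called, with Hbegf the exception in sign. The 223 were 92.9% of the control calls and 27.3% of the 818 knockout calls that were tested in controls, and 0 genes were called in opposite directions. Krt8, the keratin partner of Krt18 and too sparse in controls, stood at 68.6 against 0.533 CPM and 183 against 0 CPM in the knockouts. Myl7 was again higher on the epicardial side, with 2493 against 88.5 CPM and 3395 against 195 CPM. Dermatopontin (Dpt), with 1 against 47 and 0 against 53 UMIs and no call in controls (adjusted p = 0.122), was called in the knockouts (log2 -3.63 ± 0.71, adjusted p = 8.14e-06).

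**Figure D5:**
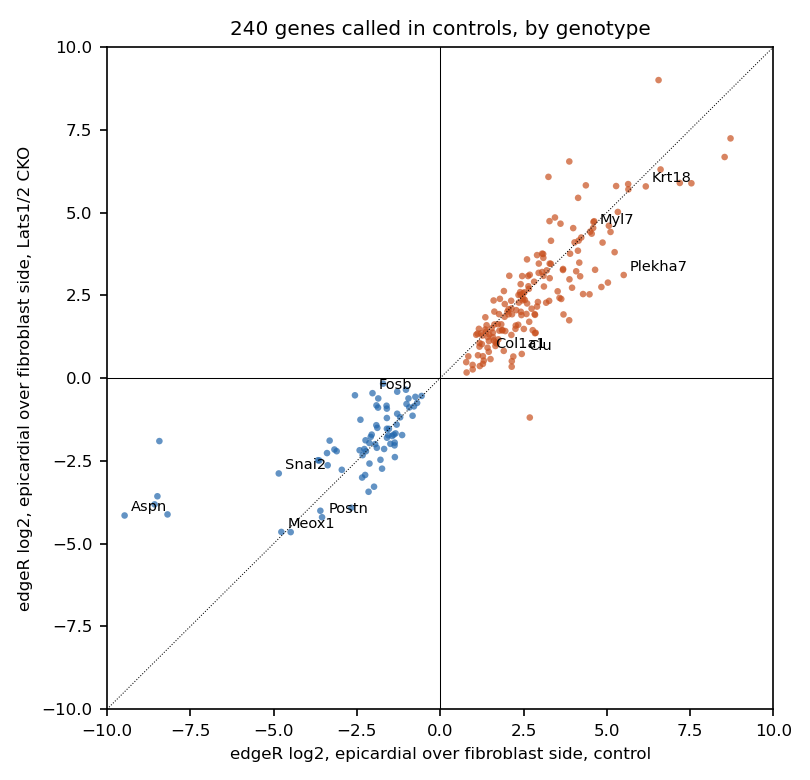
Fitted edgeR log2 ratio of epicardial over fibroblast side in controls (x axis) and in Lats1/2 CKO (y axis) for the 240 genes called in controls and tested in both. Orange genes were higher on the epicardial side in controls and blue genes on the fibroblast side, and the dotted line marks equal ratios. 239 of the 240 lie in the quadrant of their own sign, and the group of 5 fibroblast genes beyond -8 in controls had no UMI on the control epicardial side, so their control ratio is not a measured size.

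Whether a side difference itself differed between genotypes was tested as an interaction over all 8 sums. By edgeR 0 of 6115 genes passed (0.0%), 297 had an unadjusted p under 0.05, and the smallest adjusted p was 0.2004. The gene with that value was Egfp, the reporter switched on by Cre. In controls it had 0 against 43 UMIs at E13.5 and 2 against 16 at E14.5, too few to test. In the knockouts it stood at 531 against 115 CPM and 661 against 119 CPM (log2 2.35 ± 0.20). Control hearts carry the same Cre and reporter alleles, and their 107 epicardial-side cells held 2 Egfp UMIs in all. Control cells with 2 or more markers of both lists held 37 (105 CPM) at E13.5 and 4 (40.3 CPM) at E14.5. Col1a1 had a smaller side difference in the knockouts (log2 0.79 ± 0.13, against 1.46 ± 0.14 in controls), but the interaction did not pass (adjusted p = 0.677).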

How the data were processed

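The deposited table holds raw UMI counts per gene and cell, whole numbers for 30268 genes in 24849 cells, which the authors made with STAR and Picard on mm10, per the submitters' processing notes; versions and filters are not given in the sources used here. The suffix of each cell name gave its library, and 0 columns were left unused. UMIs were summed over the cells of each side in each library and tested with edgeR 4.0.16 (R 4.3.3; TMM, filterByExpr, quasi-likelihood, library as a block), with DESeq2 1.42.0 as an alternative. The test was checked on simulated counts, where it missed many changed genes, so a gene not called is not shown to be equal on the 2 sides. Ratios within a stage add 0.5 count and carry exact conditional binomial 95% intervals. SE is the log2 ratio divided by the square root of F. Fitted ratios of genes with no UMI on one side depend on the prior count and are no measured size.

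No doublet caller was run: cells with 2 or more markers of both lists fall outside the gate, and the deepest 5% of cells were left out in an alternative. Cardiomyocytes, used as a reference, had at least 2% of UMIs from Tnnt2, Actc1, Myh6 and Myh7. Named genes are the 15 per direction with the largest smaller-of-2-stages ratio among called genes of at least 50 CPM on the higher side, a fixed set of lineage genes, and the extremes of each list; Hbegf, the remaining called members of lists and the genes with opposite signs at the stages were named after their values were seen. One gene of the fixed set is not reported here. The members and lists were chosen with earlier results of these data known. Each group was a single library, and the library term takes up differences between the libraries. The p-values rest on how far the side ratio disagrees between the 2 stages, with the spread shared over genes. They do not measure the spread between embryos. Gene coordinates are those of GENCODE M21 (GRCm38), and promoters those of RefSeq (GRCm38.p6).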

Additional observations from a re-analysis of the deposited data

Results flagged for a closer look

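In 5 genes outside the gate the epicardial over fibroblast ratio had opposite signs at E13.5 and E14.5, with both counting intervals excluding 0, and the difference between the stages was not tested. They are named from 19 such genes among those tested, none of which was called in the fit over both stages. Vim, the mesenchymal intermediate filament, had log2 ratios of 0.31 and -0.81, with 187 of 372 epicardial-side UMIs at E13.5 in 1 cell. Fabp4, an endothelial fatty acid carrier, had ratios of 6.82 and -0.93. Of its 28 epicardial-side UMIs at E13.5, 24 lay in 1 cell, and of 334 fibroblast-side UMIs at E14.5, 167 did. Ccl2, a chemokine, had ratios of 3.51 and -3.33, and 120 of its 136 epicardial-side UMIs at E13.5 lay in 1 cell. Elastin (Eln) had ratios of -0.98 and 0.95 and its partner fibulin-5 (Fbln5) of -1.11 and 0.88. On the fibroblast side Eln stood at 1752 CPM at E13.5 and 551 CPM at E14.5, and Fbln5 at 925 and 190 CPM, while the epicardial side stood at 888 and 1066 CPM for Eln and 428 and 351 CPM for Fbln5, with 53 of 85 Eln and 26 of 41 Fbln5 UMIs at E13.5 in 1 cell.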

How the results depend on the processing

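The counts of calls, 180 genes higher on the epicardial and 76 on the fibroblast side, moved with the settings, while the sign of the called genes named here rarely did. Over 14 alternatives, these 87 genes gave 1103 values, of which 940 stayed called with the same sign, 162 were no longer called and 1 reversed. That one was Hbegf, at -1.19 in the Lats1/2 CKO libraries. Counts on the epicardial and fibroblast side were 94 and 18 by DESeq2, 254 and 133 with RLE size factors, 372 and 167 with at least 1 UMI in all 4 sums as the only filter, and 69 and 10 without the library term. DESeq2 lost 44 of the 87 named calls, among them Snai2, Tbx18, Lum and 12 of the 30 largest genes, and dropping the library term lost 52. With other gates they were 89 and 52 with no fibroblast marker allowed on the epicardial side, 163 and 56 with at least 3 own markers, 233 and 137 with 1000 UMIs, 253 and 153 with under 0.5% cardiomyocyte UMIs, 282 and 150 without the deepest 5% of cells, 204 and 136 without cells with 2 markers of another cell type, and 48 and 20 of 1153 genes with cells thinned to 500 UMIs before the gate. Added after seeing the data, any number of fibroblast markers gave 614 and 514, and fibroblast cells with a Tcf21 UMI 271 and 149. The knockout libraries gave 512 and 408. The cause of these shifts was not tested.

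Leaving out either control library leaves 1 pair of sums and no test: the remaining values are the within-stage ratios, and they reversed Hbegf (3.72 at E13.5 alone and -1.75 at E14.5 alone). The 2 sides of a library were paired by the library term, whose removal is given above. Between libraries, no paired analysis was possible because the labels give no replicate numbers.

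Not all uncalled genes that changed sign had lain near 0: the reported fit had Ccl2 at 2.06, Fabp4 at 1.27 and Yap1 at 0.79. Uncalled genes changed sign as follows, in log2. With no fibroblast marker on the epicardial side: Col3a1 -0.44, Vim 0.11, Igf2 -0.00679, Gata4 0.42, Twist1 -0.44, Igf1 0.16. With at least 3 own markers: Vim 0.026, Gata4 0.12, Twist1 -0.10, Igf1 0.062, Fabp4 -0.25, Eln 0.16, Myl3 0.15. Thinned before the gate: Col3a1 -0.20, Igf1 0.71, Eln 0.71, Myl3 0.076. Without the deepest cells: Ctgf -0.46, Twist1 -0.11, Igf1 0.040, Ccl2 -0.31, Eln 0.23, Fbln5 0.014. Without cells with markers of another type: Igf1 0.15, Eln 1.32, Fbln5 0.30, Myl3 0.67. In the knockouts: Col3a1 -0.081, Yap1 -0.57, Ctgf -0.88, Twist1 -0.47, Ccl2 -1.19, Myl3 0.44. With any number of fibroblast markers: Ctgf -0.88, Twist1 -0.059, Fabp4 -0.51. With a Tcf21 UMI: Eln 1.12, Fbln5 0.76. By DESeq2: Igf1 0.026, Eln 0.0077. With RLE factors Gata4 was 0.025, with 1000 UMIs 0.019, and with under 0.5% cardiomyocyte UMIs Eln was 0.062. Several genes not called in the reported fit were called under some alternatives: Igf2 (7), Rdh10 (7), Ccl2 (6), Fabp4 (2) and Col3a1 (1) higher on the epicardial side, and Dpt (5), Vim (4), Pdgfrb (3), Ankrd1 (3), Fbln5 (2), Myl3 (1) and Ctgf (1, in the knockouts, adjusted p = 0.021) higher on the fibroblast side. Eln was called higher on the epicardial side without cells with markers of another type (adjusted p = 0.000177) and with a Tcf21 UMI (adjusted p = 0.001175), and higher on the fibroblast side in the knockouts (adjusted p = 5.69e-13), the others lying up to 0.99996. The epicardial sums of 95771 and 74111 UMIs limit every ratio against a gene with no UMI there.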

Other observations

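Among other genes of the contrast, complement and innate genes were called on both sides. Clusterin (Clu), a secreted chaperone, stood at 438 against 54.1 CPM at E13.5 and 135 against 50.3 CPM at E14.5 on the epicardial and fibroblast sides (edgeR log2 2.45 ± 0.40, adjusted p = 0.00457). Serping1, the inhibitor of the first complement protease, stood at 292 against 64.7 CPM and 135 against 55.1 CPM (log2 1.83 ± 0.38, adjusted p = 0.0179). Ifitm3, an antiviral membrane protein, was higher on the fibroblast side, at 41.8 against 176 CPM and 13.49 against 170 CPM (log2 -2.56 ± 0.51, adjusted p = 0.0138). Of 7 tested genes of this list 4 were not called. Over all genes, 2.64% were called higher on the epicardial and 1.11% on the fibroblast side. In the Lats1/2 CKO libraries neither Clu (log2 0.73 ± 0.36, adjusted p = 0.179) nor Ifitm3 (log2 -0.52 ± 0.30, adjusted p = 0.285) was called, and the interactions did not pass (adjusted p = 0.590 and 0.831). Lrp2, an endocytic receptor of epithelia, had 3 against 1 UMIs at E13.5 and 12 against 0 UMIs at E14.5. The counting interval of its log2 ratio (epicardial over fibroblast) started at 4.53 at E14.5.

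Of 14 tested glycolysis and hypoxia genes edgeR called 0, with 5 at an unadjusted p under 0.05 and 0 called by DESeq2. Over all genes, edgeR called 3.75%, and 1044 of 6823 had an unadjusted p under 0.05.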
